A study of Bubalus bubalis with 9 samples.

Results

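Collagen genes were followed in granulosa cells of Chinese buffalo (Bubalus bubalis), the somatic cells lining the ovarian follicle's wall, from follicles at 3 stages: healthy, early atretic and late atretic. In atresia a follicle degenerates in place of ovulating. Members were found by name, as every gene identifier made of COL, a type number, A and a chain number, with LOC102416276 added because the RefSeq annotation of assembly NDDB_SH_1 names it COL4A3. The rule found 43 of 20801 genes, namely 11 fibrillar, 6 basement membrane (type IV), 4 type VI and 22 other collagens. RNA was sequenced from 9 samples, 3 per stage, all of granulosa cells of ovarian follicles with no genotype, treatment or animal age in the labels. Whether each sample is its own animal is not stated in the labels, and the p-values therefore describe the spread among these samples, which may be technical.

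Collagens are secreted trimers wound into a long helix of repeating glycine triplets. Fibrillar collagens (types I, II, III, V, XI, XXIV and XXVII) assemble into the cable-like fibrils of stroma. Type IV collagen forms the sheet-like network of basement membranes, and the follicle's basal lamina separates granulosa cells from the theca around it. Type VI collagen makes beaded microfilaments next to cells, and the remaining types decorate fibrils, anchor membranes, span the cell membrane or release fragments that act on vessels. In the bovine ovary, the type IV chains of the follicular basal lamina are known to change as follicles grow, and macrophages are known to enter atretic follicles.

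For each pair of stages, the authors' deposited tables list each gene's mean normalized read count in both stages and the authors' fold change, as log2, with raw and adjusted p-values. The group means summed to between 13141820 and 14490733 normalized counts. No values per sample entered, and library depth is unknown and overlap between samples cannot be shown. Healthy and early atretic means below come from the comparison of those stages and late atretic means from that of the late atretic and healthy stages, whose healthy means are smaller by a median factor of 1.03. Fold changes are always taken within 1 table. An error given as ± is a standard error on the log2 scale, worked back from each deposited fold change and its p-value as if from a normal test with 2 sides. Counts are not scaled to transcript length, so levels of different collagens are not ranked against each other, and summed counts weigh long transcripts more. In these bulk samples, fewer cells of a type and less RNA per cell cannot be told apart.

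Collagen RNA made up a larger part of the counts in atretic follicles, and its makeup moved from type IV towards fibrillar and type VI collagens. All 43 collagens together held 0.260% of the normalized counts of healthy, 0.455% of early atretic and 0.524% of late atretic follicles. Type IV collagens supplied 72.0% of the collagen counts in healthy, 47.7% in early atretic and 39.9% in late atretic follicles. Their summed counts were 27177 in healthy, 29003 in early atretic and 27461 in late atretic follicles. COL4A1 held this sum up: without it the log2 ratio to healthy follicles was -0.32 in early and -0.21 in late atretic follicles, in place of 0.09 and 0.06. Fibrillar collagens supplied 10.2%, 21.7% and 29.5% of the collagen counts in the same order, and type VI collagens 1.21%, 5.83% and 13.7%. The other collagens supplied 16.5%, 24.8% and 16.9%, with the early atretic stage highest. These sums carry no error between samples and were not tested.

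**Figure D1:**
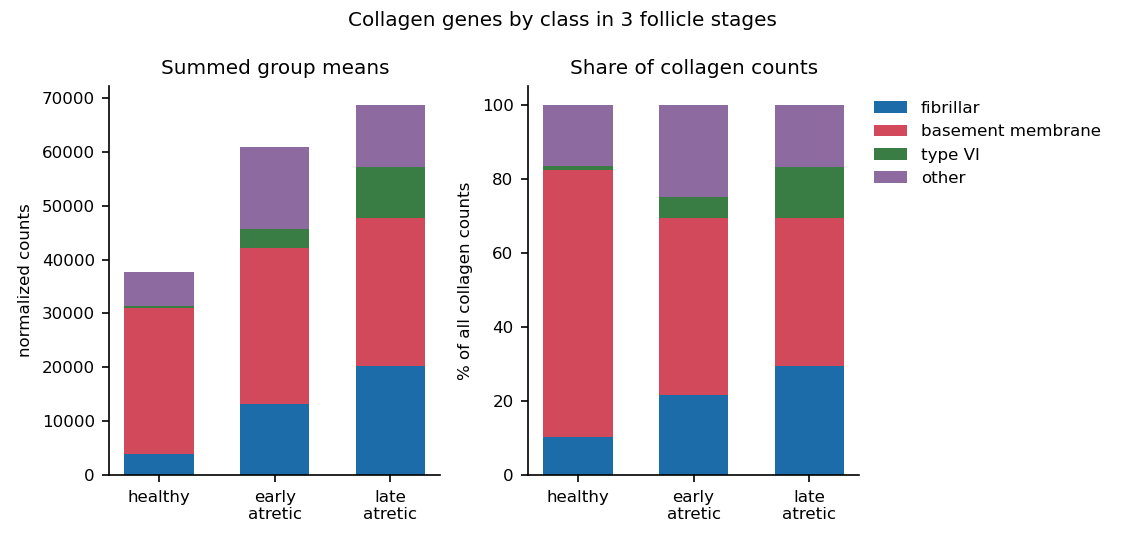
Summed mean normalized counts of the collagens of each class (left, normalized counts) and their share of all collagen counts (right, percent) in healthy, early atretic and late atretic follicles, as stacked bars without error. The type IV block, whose height rests on COL4A1, goes from 27177 to 27461 while its share drops from 72.0% to 39.9%, and the fibrillar and type VI blocks grow.

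In early atretic against healthy follicles, 8 of 42 tested collagens were higher and 4 lower at an adjusted p below 0.05 in the authors' deposited table, which is 19.0% and 9.52% of them. Of all 17386 genes tested there, 8.59% were higher and 4.35% lower. At an unadjusted p below 0.05, 15 collagens were higher and 5 lower, beside 13.7% and 9.82% of all genes. With a log2 fold change of at least 1 also asked for, 8 were higher and 2 lower at the adjusted threshold (the authors' deposited table). The share of all genes under that stricter rule was not worked out, so these counts cannot be set against it. In late atretic against healthy follicles, 9 of 42 tested collagens were higher (21.4%), against 3.98% of 17366 genes in the authors' deposited table. None was lower there, against 0.397% of all genes, and 1 was lower at an unadjusted p below 0.05, a rule met by 2.96% of all genes in the authors' deposited table. The median log2 fold change of the tested collagens was 0.77 in early and 0.41 in late atretic follicles, beside medians of 0.02 and 0.03 over all tested genes. Both comparisons use the same healthy samples, so their counts are not independent of each other. COL15A1 in early and COL9A1 in late atretic against healthy follicles had no p-value in the authors' deposited table, which left 42 tested members in each.

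By class, 4 of 11 fibrillar collagens were higher in early (36.4%) and 6 of 11 in late atretic follicles (54.5%), beside 8.59% and 3.98% of all genes. None was lower at an adjusted or an unadjusted p below 0.05 in the authors' deposited tables. Of the 4 type VI collagens, 3 were higher in each comparison (75%), beside the same shares of all genes. Of the 6 type IV collagens, 2 were lower in early atretic follicles (33.3%, beside 4.35% of all genes). In late atretic follicles 0 passed, and 1 was higher and 1 lower at an unadjusted p below 0.05, beside 9.2% and 2.96% of all genes in the authors' deposited table. Of 21 tested other collagens, 1 was higher (4.76%) and 2 were lower (9.52%) in early atretic follicles, beside 8.59% and 4.35% of all genes. The share of higher members was thus below that of all genes. None of the 21 passed in late atretic follicles, and none had an unadjusted p below 0.05 in the authors' deposited table.

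**Figure D2:**
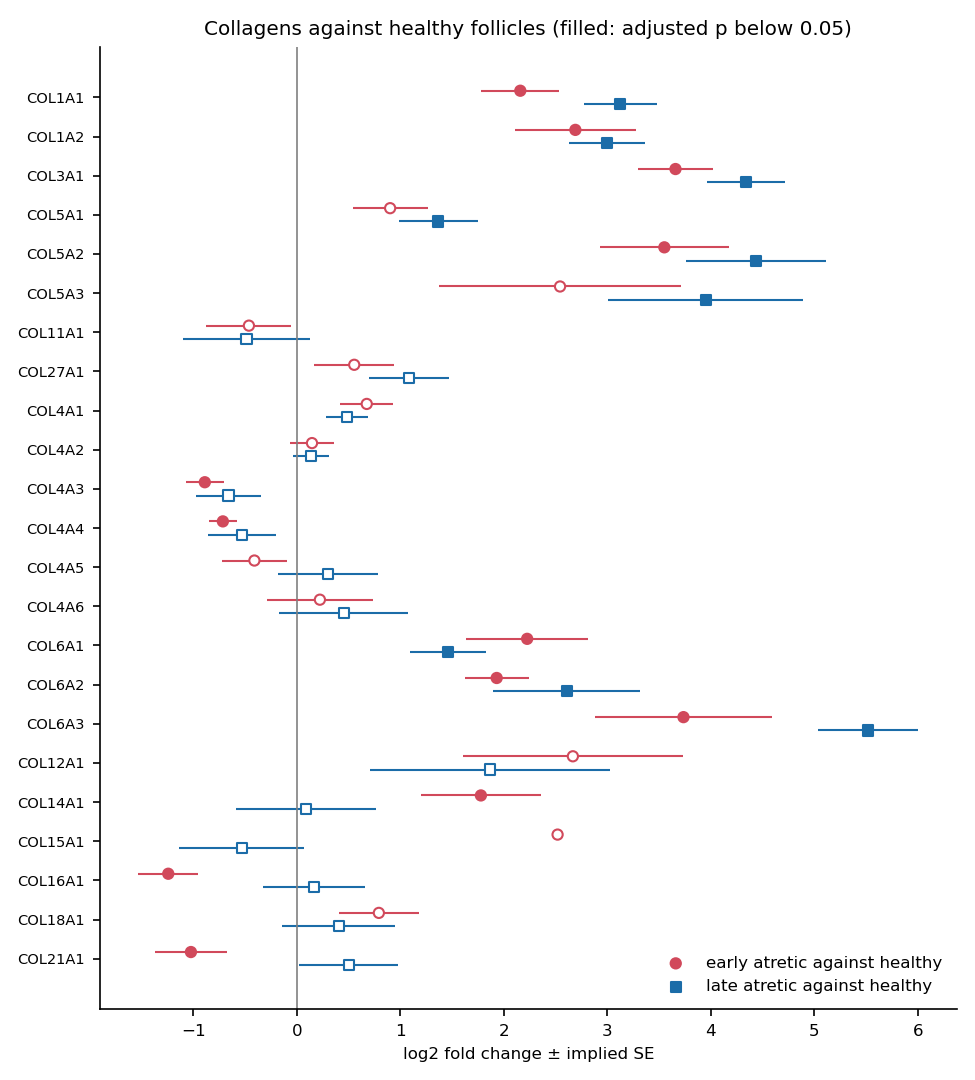
Log2 fold changes of the 23 collagens described singly, in early atretic (circles) and late atretic (squares) against healthy follicles, with bars for the implied standard error and filled symbols for an adjusted p below 0.05. COL15A1 has no bar in early atretic follicles because it has no p-value there. All symbols of types I, III, V and VI lie right of 0, and the 4 filled symbols left of 0 are the early ones of COL4A3, COL4A4, COL16A1 and COL21A1.

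Types I and III, the major fibrillar collagens of stroma, were higher in both atretic stages. COL3A1, the only chain of type III collagen, had means of 273 in healthy, 3446 in early atretic and 5355 in late atretic follicles. It rose by 3.66 ± 0.36 on the log2 scale in early (Benjamini-Hochberg adjusted p = 9.97e-21) and by 4.34 ± 0.38 in late atretic follicles (adjusted p = 5.83e-27) in the authors' deposited tables. By p-value it stood at place 5 of all tested genes in the first comparison and at place 7 in the second. COL1A1, the alpha 1 chain of type I collagen, had means of 767, 3425 and 6494 in healthy, early and late atretic follicles. Its rises were 2.16 ± 0.37 in early and 3.12 ± 0.35 in late atretic follicles (log2; the authors' deposited tables). COL1A2, the partner chain of the same trimer, had means of 238, 1537 and 1845 and rose by 2.69 ± 0.58 and 3.00 ± 0.37 (log2; the authors' deposited tables). The ratio of COL1A1 to COL1A2 counts was 3.22 in healthy, 2.23 in early atretic and 3.52 in late atretic follicles. Both chains thus passed as higher at both stages, and whether they rose by different amounts was not tested.

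Type V collagen sits inside type I fibrils and sets their diameter, and its 3 chains moved unequally. COL5A2 had means of 74.9, 879 and 1574 in healthy, early and late atretic follicles. It rose by 3.55 ± 0.63 in early and 4.44 ± 0.68 in late atretic follicles (log2; the authors' deposited tables; Benjamini-Hochberg adjusted p = 1.17e-06 and 1.79e-08). COL5A1, which partners it in the common form of the trimer, had means of 1669, 3117 and 4175. It rose by 1.37 ± 0.38 in late atretic follicles (adjusted p = 0.012), while its early log2 fold change of 0.90 ± 0.36 missed the threshold in the authors' deposited tables (adjusted p = 0.081). The ratio of COL5A1 to COL5A2 counts was 22.3 in healthy, 3.55 in early atretic and 2.65 in late atretic follicles. COL5A3, the third chain, was low throughout with means of 2.37, 13.9 and 36.0. It rose by 3.95 ± 0.94 in late atretic follicles and had an early log2 fold change of 2.54 ± 1.17 that missed the threshold in the authors' deposited tables.

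COL11A1 and COL27A1, better known from cartilage, were the other fibrillar genes with a mean of at least 100. COL11A1 had means of 558, 405 and 388, with log2 fold changes of -0.46 ± 0.41 in early and -0.49 ± 0.62 in late atretic follicles that missed the threshold in the authors' deposited tables. COL27A1 had means of 197, 289 and 405, with log2 fold changes of 0.55 ± 0.39 and 1.08 ± 0.38 that missed the threshold as well in the authors' deposited tables (adjusted p = 0.43 and 0.090). The summed fibrillar counts were 3.43-fold higher in early and 5.44-fold higher in late atretic than in healthy follicles. COL11A1 was the 1 fibrillar gene of this size whose means were lower in both atretic stages.

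**Figure D3:**
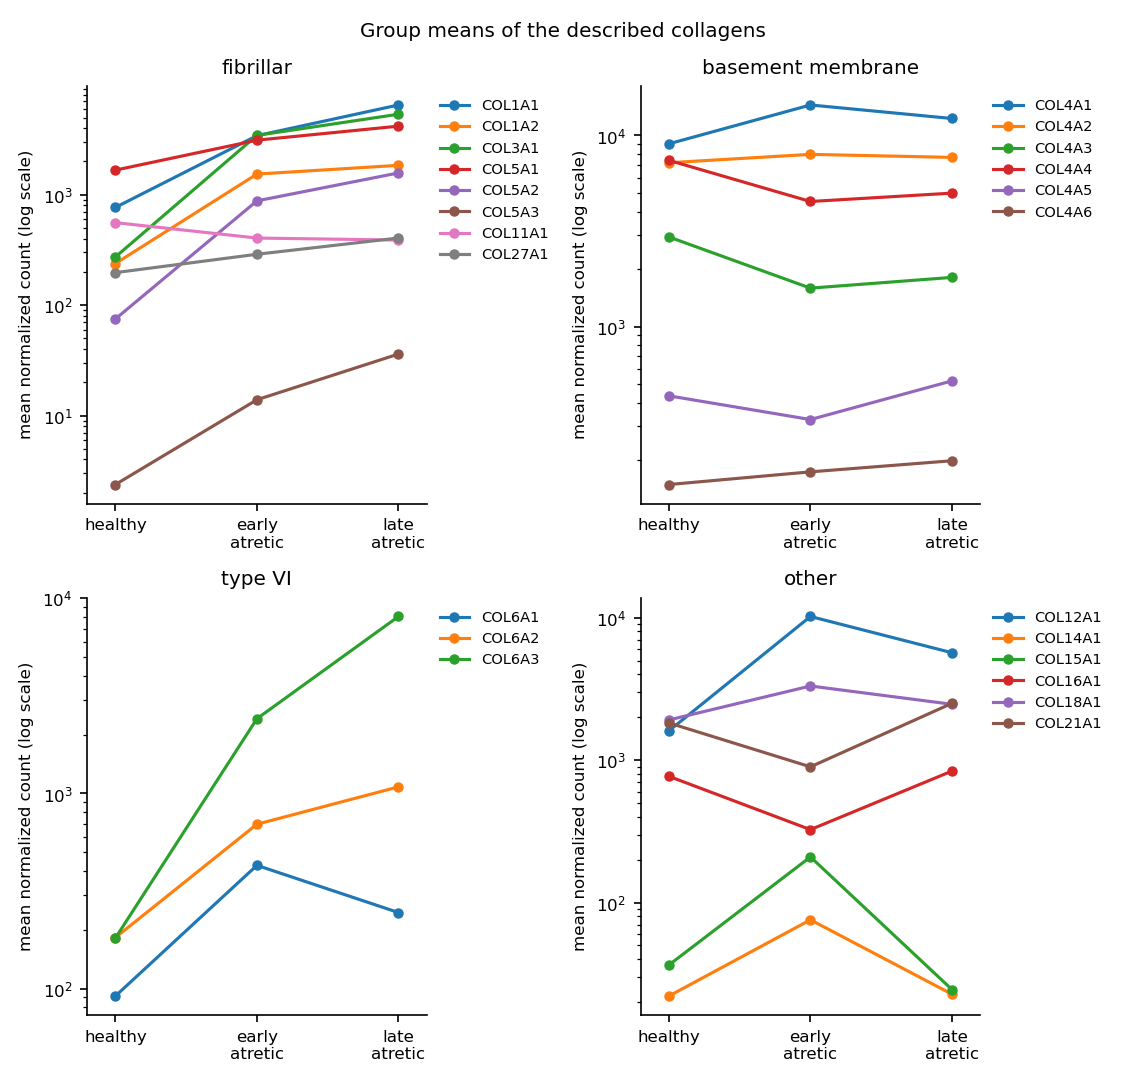
Group means of the 23 collagens described singly, as normalized counts on a log scale, in healthy, early atretic and late atretic follicles, with 1 panel per class and 1 line per gene. Lines join the stages for reading only and the means carry no error. COL6A3 climbs from 182 to 8081, and COL4A3 and COL4A4 drop from healthy to early atretic follicles. COL14A1 and COL15A1 have their highest mean at the early stage, which for COL15A1 has no p-value.

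Type VI collagen had the largest shift of any class in summed counts, which were 7.76-fold higher in early and 21.2-fold higher in late atretic than in healthy follicles. COL6A3, whose long alpha 3 chain joins the other chains in the usual trimer, had means of 182 in healthy, 2418 in early atretic and 8081 in late atretic follicles. It rose by 3.73 ± 0.86 in early (adjusted p = 0.00039) and 5.52 ± 0.48 in late atretic follicles (adjusted p = 5.83e-27) (log2; the authors' deposited tables). COL6A3 stood at place 610 by p-value among all tested genes in the first comparison and at place 6 in the second. COL6A1 had means of 91.6, 428 and 245, and rose by 2.22 ± 0.59 and 1.46 ± 0.37 (log2; the authors' deposited tables). COL6A2 had means of 183, 696 and 1081, and rose by 1.93 ± 0.31 and 2.61 ± 0.71 (log2; the authors' deposited tables).

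The 3 chains of the type VI trimer therefore did not keep their ratio. There were 1.98 COL6A3 counts per COL6A1 count in healthy, 5.65 in early atretic and 32.9 in late atretic follicles. Per COL6A2 count, COL6A3 had 0.994, 3.47 and 7.47 counts in the same order. Differences between chains measured in the same libraries have no error in the deposited tables and were not tested. COL6A3 carried most of the class: without it, the log2 ratio of the summed counts was 2.04 in early and 2.32 in late atretic follicles, in place of 2.96 and 4.41. COL6A5, an alternative chain for COL6A3, stayed below 10 normalized counts in every stage.

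Among type IV collagens, COL4A3 and COL4A4 were lower in early atretic follicles while COL4A1 and COL4A2 did not pass in either direction. COL4A1 and COL4A2 encode the network present in nearly all basement membranes. COL4A1 had means of 9043, 14437 and 12267 in healthy, early and late atretic follicles, with log2 fold changes of 0.67 ± 0.25 (adjusted p = 0.058) and 0.48 ± 0.20 (adjusted p = 0.21) in the authors' deposited tables. When the adjustment was made over genes with a mean of at least 100 alone, the early value had an adjusted p of 0.043 (Benjamini-Hochberg, from the authors' p-values). COL4A2 had means of 7198, 7964 and 7677, with log2 fold changes of 0.15 ± 0.21 and 0.13 ± 0.17 in the authors' deposited tables. The 95% interval of its fold change, from the same implied errors, ran from -0.27 to 0.56 in early and from -0.20 to 0.47 in late atretic follicles.

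COL4A3 and COL4A4 encode chains of a second, more cross-linked network known from kidney and other specialised membranes. COL4A4 had means of 7409 in healthy, 4513 in early atretic and 4991 in late atretic follicles. It fell by 0.72 ± 0.14 on the log2 scale in early atretic follicles (Benjamini-Hochberg adjusted p = 8.02e-06), and its late log2 fold change of -0.53 ± 0.33 missed the threshold in the authors' deposited tables (adjusted p = 0.61). COL4A3 had means of 2944, 1589 and 1808. It fell by 0.89 ± 0.18 in early atretic follicles (adjusted p = 5.57e-05), with a late log2 fold change of -0.66 ± 0.32 that missed the threshold in the authors' deposited tables (adjusted p = 0.35). The late values were thus close to the early ones with wider errors.

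COL4A5, the usual partner of COL4A3 and COL4A4 in their trimer, had means of 434, 326 and 520, and its log2 fold changes of -0.41 ± 0.32 and 0.30 ± 0.48 missed the threshold in the authors' deposited tables. COL4A6 had means of 149, 174 and 199, with log2 fold changes of 0.22 ± 0.52 and 0.45 ± 0.62 that missed the threshold in the authors' deposited tables. COL4A1 and COL4A2 together made up 59.8% of the type IV counts in healthy, 77.2% in early atretic and 72.6% in late atretic follicles. COL4A3 and COL4A4 made up 38.1%, 21.0% and 24.8%, and COL4A5 and COL4A6 the remaining 2.15%, 1.72% and 2.62%. Of 12 tested markers of granulosa cells, early atretic follicles had 7 lower (58.3%, beside 4.35% of all genes) and 1 higher (8.33%, beside 8.59%). In late atretic follicles 0 passed (the authors' deposited tables). An unadjusted p below 0.05 gave 2 lower and 1 higher there, a rule met by 2.96% and 9.2% of all genes. Of the 12 markers, 2 had a positive log2 fold change in each of these comparisons. The part of granulosa cell numbers in the fall of COL4A3 and COL4A4 was not tested.

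Among the other collagens, a pair of fibril-associated types was lower at the early stage. COL16A1, found at the surface of fibrils and microfilaments, had means of 770 in healthy, 325 in early atretic and 838 in late atretic follicles. It fell by 1.24 ± 0.29 on the log2 scale in early atretic follicles (Benjamini-Hochberg adjusted p = 0.00043), and its late log2 fold change was 0.16 ± 0.49 in the authors' deposited tables. COL21A1, another fibril-associated collagen, had means of 1825, 897 and 2505. It fell by 1.02 ± 0.35 in early atretic follicles (adjusted p = 0.029), with a late log2 fold change of 0.50 ± 0.48 that missed the threshold in the authors' deposited tables. Both genes thus had their lowest mean in early atretic follicles, and their late means lay above their healthy ones.

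COL14A1 and COL15A1 had the opposite shape, with their highest mean at the early stage. COL14A1, which binds fibrils and their proteoglycans, had means of 22.1, 75.7 and 22.8. It rose by 1.78 ± 0.58 on the log2 scale in early atretic follicles (Benjamini-Hochberg adjusted p = 0.022), and its late log2 fold change was 0.09 ± 0.67 in the authors' deposited tables. COL15A1, a collagen of vessel and muscle basement membranes, had means of 36.5, 209 and 24.5. Its log2 fold changes of 2.52 (early against healthy) and -3.05 (late against early) came without a p-value in the authors' deposited tables, so neither was tested. Both comparisons hold the early atretic samples, and group means cannot show whether 1 of these samples holds the high mean. The early peak of COL15A1 is therefore not shown. Its late log2 fold change against healthy follicles was -0.53 ± 0.60 and missed the threshold in the authors' deposited table.

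COL12A1 and COL18A1 had higher means in both atretic stages than in healthy follicles but missed the adjusted threshold. COL12A1, a fibril-associated collagen of tissue under tension, had means of 1606 in healthy, 10194 in early atretic and 5674 in late atretic follicles. Its log2 fold changes of 2.67 ± 1.07 (Benjamini-Hochberg adjusted p = 0.080) and 1.87 ± 1.16 (adjusted p = 0.61) missed the threshold in the authors' deposited tables. The class sum rested largely on COL12A1: the log2 ratio of the other collagens was 1.28 with it and 0.09 without it in early atretic follicles, and 0.94 with it and 0.40 without it in late atretic follicles. COL18A1, the parent of the vessel inhibitor endostatin, had means of 1914, 3314 and 2466, with log2 fold changes of 0.79 ± 0.39 and 0.40 ± 0.54 that missed the threshold in the authors' deposited tables (adjusted p = 0.18 and 0.97).

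The remaining 20 collagens had means below 100 in every stage and passed in no comparison. COL7A1, the anchoring fibril collagen, was the highest of them with a mean of up to 52.8, and 12 of the 20 stayed below 10. Their log2 fold changes ran from -2.80 to 2.65 in early atretic and from -1.81 to 3.08 in late atretic against healthy follicles in the authors' deposited tables. At an unadjusted p below 0.05, early atretic follicles had 2 higher and 1 lower of them, a rule met by 13.7% and 9.82% of all genes, and 0 differed in late atretic follicles in the authors' deposited tables. The count in early atretic follicles is thus no larger than the share of all genes. The 3 were COL7A1 (1.41 ± 0.55), the cartilage collagen gene COL2A1 (2.65 ± 1.06) and COL10A1 (-1.95 ± 0.76) (log2 fold changes; the authors' deposited table). COL10A1, known from cartilage that turns to bone, went from a healthy mean of 18.3 to an early atretic one of 4.73. COL9A1 was listed at 0 in healthy and late atretic and COL19A1 at 0 in early and late atretic follicles.

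Late atretic follicles were also compared directly with early atretic ones, which asks whether collagens move again as atresia advances. No collagen passed among 41 tested, against 0.0171% of 17552 genes higher and 0.0912% lower in the authors' deposited table. At an unadjusted p below 0.05, 6 of the 41 were higher and 1 was lower, a rule met by 2.36% and 3.00% of all genes in the authors' deposited table. The 6 higher ones were COL6A3 (1.80 ± 0.53), COL21A1 (1.54 ± 0.44), COL16A1 (1.42 ± 0.50), COL5A3 (1.42 ± 0.72), COL1A1 (0.98 ± 0.40) and COL3A1 (0.69 ± 0.33) (log2 fold changes; the authors' deposited table). The lower one was COL14A1, at -1.68 ± 0.64 in the authors' deposited table. The smallest adjusted p values were 0.16 for COL21A1 and 0.18 for COL6A3 (Benjamini-Hochberg, the authors' deposited table). The return of COL16A1 and COL21A1 and the further climb of COL6A3 were therefore not shown at the threshold.

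**Figure D4:**
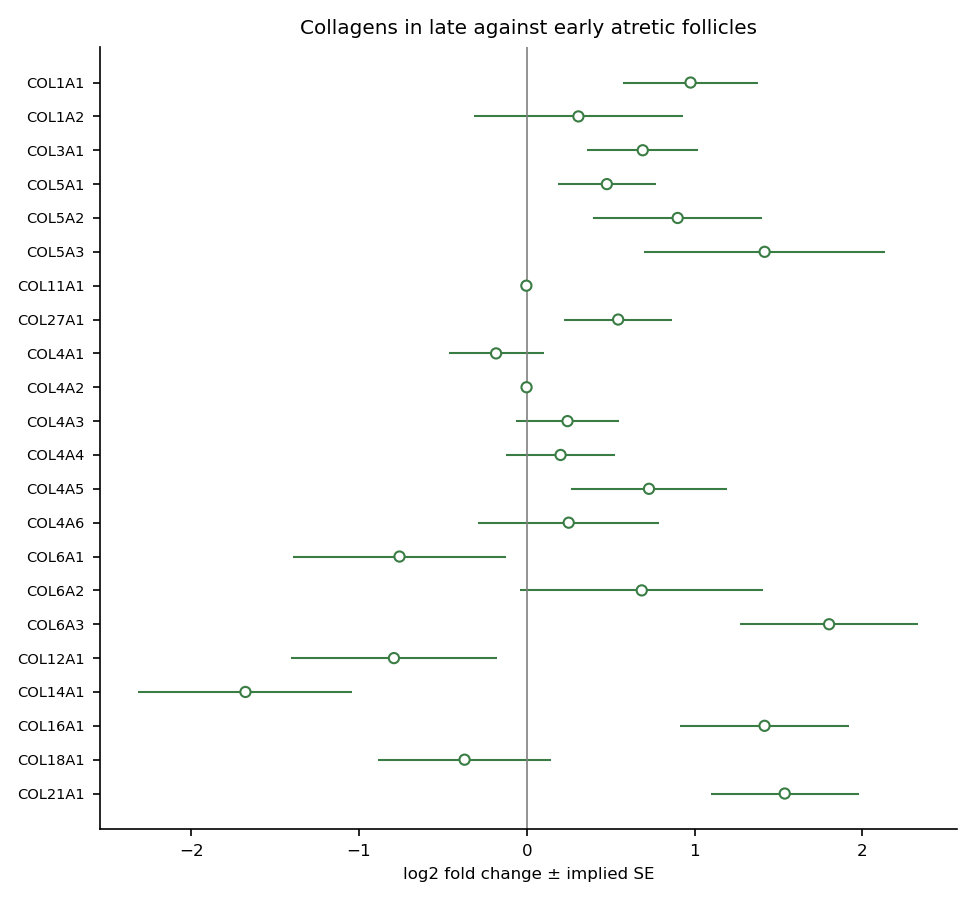
Log2 fold changes of 22 described collagens in late against early atretic follicles, with bars for the implied standard error. No symbol is filled because none passed an adjusted p of 0.05. COL11A1 and COL4A2 lie at 0 without a bar because a p-value near 1 gives no error, and COL15A1 is left out because it has no p-value.

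Several collagen genes lie next to each other on the chromosome, and in mammals the paired type IV genes are known to be read outward from shared promoters. In the RefSeq order of assembly NDDB_SH_1, 6 pairs of collagens had no protein-coding gene between them. COL4A3 and COL4A4 moved by nearly the same amount, with log2 fold changes of -0.89 and -0.72 in early and -0.66 and -0.53 in late atretic follicles in the authors' deposited tables. COL3A1 and COL5A2, which are neighbours too, had 3.66 and 3.55 in early and 4.34 and 4.44 in late atretic follicles (log2 fold changes; the authors' deposited tables). Their count ratio was 3.64 in healthy, 3.92 in early atretic and 3.40 in late atretic follicles.

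Other neighbours kept their ratio less closely. COL4A1 had 1.26 counts per COL4A2 count in healthy, 1.81 in early atretic and 1.60 in late atretic follicles. COL4A5 had 2.91, 1.88 and 2.62 counts per COL4A6 count in the same order. COL6A1 had 0.501, 0.616 and 0.227 counts per COL6A2 count, so this ratio was lowest in late atretic follicles. The sixth pair, COL9A1 and COL19A1, was below 1 normalized count in every stage. No test of these ratios was possible from group means.

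Genes that modify, cut, cross-link and break down collagens were read from 4 lists. The list of collagen modification and folding holds the enzymes and chaperones of the endoplasmic reticulum that hydroxylate and fold the chains. Of its 20 tested members, 1 was higher and 3 were lower in early and 1 was higher and 0 lower in late atretic follicles (the authors' deposited tables). These are 5% higher and 15.0% lower early and 5% higher late, beside 8.59%, 4.35% and 3.98% of all genes. The share of higher members was thus near or below that of all genes. In late atretic follicles 0.397% of all genes were lower. An unadjusted p below 0.05 gave 1 lower member there, a rule met by 2.96% of all genes. The median log2 fold change of the list was -0.33 in early and -0.12 in late atretic follicles, beside 2.16 and 1.37 for the fibrillar collagens. P3H2, a prolyl 3-hydroxylase known to act on type IV collagen, had means of 58.2, 353 and 193. It rose by 2.60 ± 0.53 in early and 1.77 ± 0.52 in late atretic follicles (log2; the authors' deposited tables). The lower genes in early atretic follicles were CRTAP, the partner of prolyl 3-hydroxylase, FKBP14, a folding enzyme, and P4HA1, a prolyl 4-hydroxylase subunit named here after its values were seen. They fell by 0.68 ± 0.19, 1.16 ± 0.33 and 0.72 ± 0.23 (log2; the authors' deposited table). SERPINH1, the collagen chaperone HSP47, had means of 43371, 30005 and 34511, and its log2 fold changes of -0.53 and -0.29 missed the threshold in the authors' deposited tables. It was also singled out after its values were seen.

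Of 22 tested genes of procollagen secretion, cleavage and cross-linking, 7 were higher and 3 lower in early and 5 higher and 0 lower in late atretic follicles (the authors' deposited tables). These are 31.8% higher and 13.6% lower early and 22.7% higher late, beside 8.59%, 4.35% and 3.98% of all genes. In late atretic follicles 0.397% of all genes were lower. An unadjusted p below 0.05 gave 2 lower members there, a rule met by 2.96% of all genes. ADAMTS2, which removes the amino-terminal propeptide of fibrillar procollagens, had means of 40.4, 538 and 697. It rose by 3.73 ± 0.48 and 4.15 ± 0.48 in early and late atretic follicles (log2; the authors' deposited tables). LOXL1 and LOXL2, of the lysyl oxidase family that starts cross-links, rose by 4.36 ± 0.72 and 2.48 ± 0.44 in early and by 5.03 ± 0.66 and 3.24 ± 0.47 in late atretic follicles (log2; the authors' deposited tables). The 3 lower genes, named after their values were seen, were TLL2, of the family that removes the carboxy-terminal propeptide, PCOLCE, which enhances that cut, and LOXL3. They fell by 1.99 ± 0.39, 1.31 ± 0.34 and 0.53 ± 0.18 in early atretic follicles (log2; the authors' deposited table). CREB3L1, a transcription factor of collagen secretion that was also named after its values were seen, had means of 58.9, 748 and 814 and passed as higher in both comparisons. Members of the processing machinery thus moved in both directions at the early stage.

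**Figure D5:**
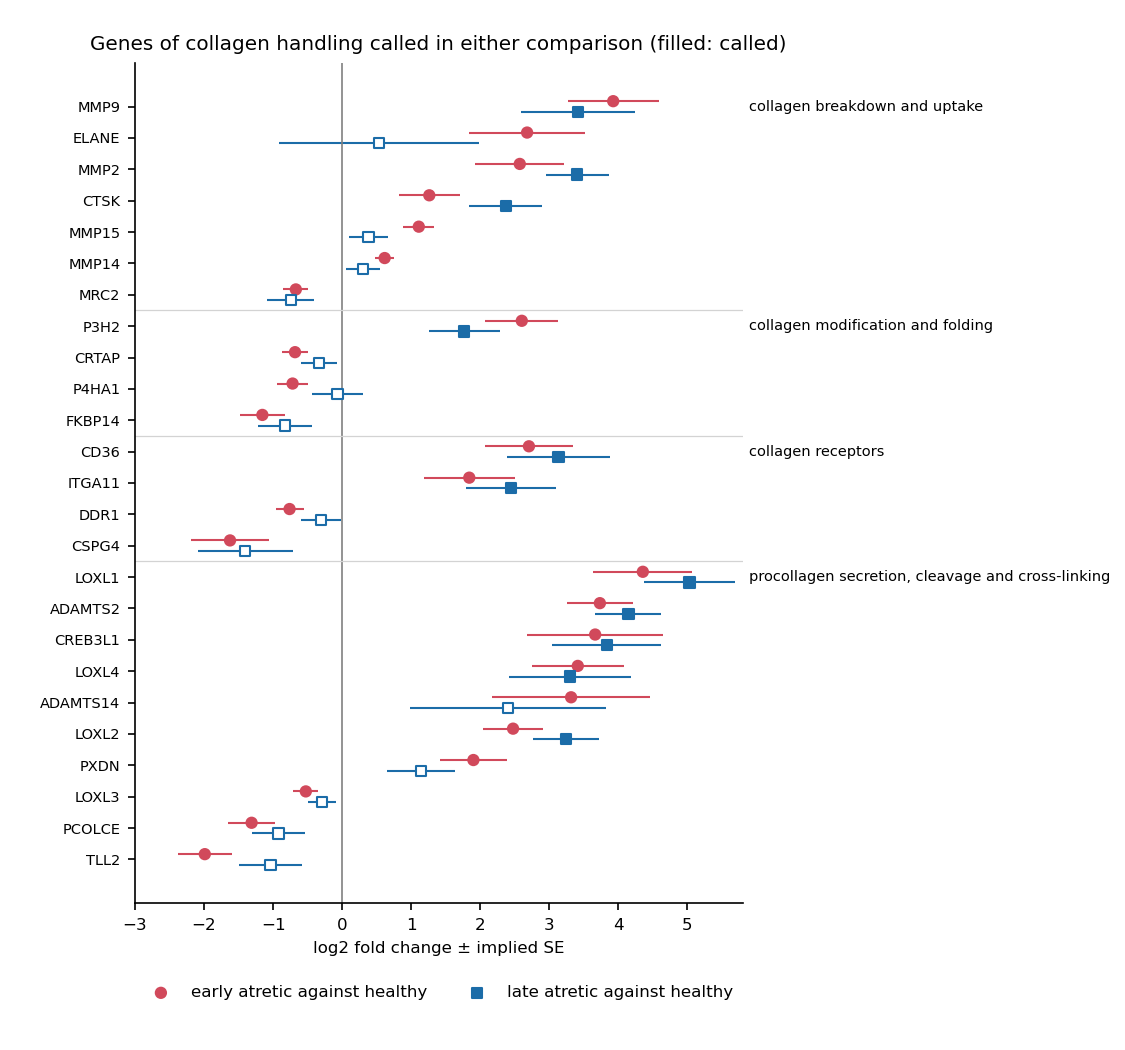
Log2 fold changes with implied standard errors of the genes of collagen handling that passed in either comparison, in early atretic (circles) and late atretic (squares) against healthy follicles, grouped by list. Filled symbols mark an adjusted p below 0.05. ADAMTS2, LOXL1 and LOXL2 lie right of 0 and are filled at both stages, and TLL2, PCOLCE and CRTAP lie left of 0 and are filled at the early stage.

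Of 13 tested genes of collagen breakdown and uptake, 6 were higher and 1 lower in early and 3 higher and 0 lower in late atretic follicles (the authors' deposited tables). These are 46.2% higher and 7.69% lower early and 23.1% higher late, beside 8.59%, 4.35% and 3.98% of all genes. The 1 lower member early was thus near the share of all genes. In late atretic follicles 0.397% of all genes were lower. An unadjusted p below 0.05 gave 1 lower member there, a rule met by 2.96% of all genes. MMP2 and MMP9, the gelatinases that cut denatured and type IV collagen, rose by 2.57 ± 0.65 and 3.93 ± 0.66 in early and 3.41 ± 0.46 and 3.42 ± 0.83 in late atretic follicles (log2; the authors' deposited tables). CTSK, a lysosomal collagenase, had means of 241, 577 and 1212 and rose by 1.26 ± 0.44 and 2.37 ± 0.53 (log2; the authors' deposited tables). MMP14 and MMP15, membrane-bound members of the same enzyme family, rose by 0.62 ± 0.14 and 1.11 ± 0.22 in early atretic follicles on the log2 scale, and neither passed in late ones (the authors' deposited tables). The lower gene was MRC2, an uptake receptor for collagen fragments named after its values were seen, which fell by 0.67 ± 0.18 on the log2 scale in early atretic follicles (the authors' deposited table).

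Of 12 tested collagen receptor genes, 2 were higher and 2 lower in early and 2 higher and 0 lower in late atretic follicles (the authors' deposited tables). These are 16.7% in each direction early and 16.7% higher late, beside 8.59% higher and 4.35% lower early and 3.98% higher late among all genes. In late atretic follicles 0.397% of all genes were lower. An unadjusted p below 0.05 gave 2 lower members there, a rule met by 2.96% of all genes. ITGA11, an integrin chain that binds fibrillar collagen, had means of 19.6, 70.2 and 104 and rose by 1.84 ± 0.66 and 2.45 ± 0.65 (log2; the authors' deposited tables). CD36, a receptor of many ligands that also binds collagen and is abundant on macrophages, rose by 2.71 ± 0.64 and 3.14 ± 0.75 (log2; the authors' deposited tables). DDR1, a receptor kinase of epithelial cells that collagen activates, fell by 0.76 ± 0.20 in early atretic follicles, and CSPG4, a proteoglycan that binds type VI collagen, fell by 1.62 ± 0.56 (log2; the authors' deposited table).

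Markers of other cells were often higher in atretic follicles, but not all members moved with the collagens. Of 15 stromal fibroblast and pericyte markers, 6 were higher and 2 lower in early and 4 higher and 0 lower in late atretic follicles (the authors' deposited tables). These are 40.0% higher and 13.3% lower early and 26.7% higher late, beside 8.59%, 4.35% and 3.98% of all genes. In late atretic follicles 0.397% of all genes were lower. An unadjusted p below 0.05 gave 1 lower marker there, a rule met by 2.96% of all genes. Of the 15, 13 had a positive log2 fold change in early and 9 in late atretic follicles. TAGLN, an actin-binding protein of contractile cells, had means of 182, 740 and 1231, and S100A4, a calcium-binding protein of fibroblasts and white blood cells, had means of 85.2, 725 and 671. PDGFRB, a receptor of stromal cells and pericytes, had means of 91.0, 996 and 1194. PDGFRA, a fibroblast receptor named after its values were seen, had means of 361, 1907 and 1567. The summed counts of the stromal list were 14275, 13852 and 15022, and did not climb as the fibrillar and type VI sums did. In healthy follicles 2 of its members, MCAM and CSPG4, held most of them. MCAM had means of 6343, 1700 and 2894 and CSPG4 of 5126, 1664 and 1879, and both passed as lower in early atretic follicles. They were singled out after their values were seen, and CSPG4 stands in the receptor list as well. MFAP5, also named after its values were seen, was below 1 normalized count in every stage and no stromal marker was at 0. Of 16 macrophage markers found, 9 of 16 tested were higher in early and 9 of 15 in late atretic follicles, with summed counts of 502, 3584 and 6921 and none at 0 in any stage. These are 56.2% and 60.0%, beside 8.59% and 3.98% of all genes. CD68, a lysosomal protein of macrophages, had means of 121, 920 and 1833, and TYROBP, a signalling adaptor of myeloid cells, had means of 4.91, 102 and 154. The part of stromal cells and macrophages in the rise of types I, III, V and VI was not tested.

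Endothelial markers had higher means at the early stage, as COL14A1 and the untested COL15A1 did, and most stayed above their healthy means late. All 16 had a positive log2 fold change in early against healthy follicles, of which 3 passed (18.8%, beside 8.59% of all genes). In late against early atretic follicles 1 of 16 had a positive one and 0 passed (the authors' deposited tables). An unadjusted p below 0.05 gave 1 lower there, a rule met by 3% of all genes. In late atretic against healthy follicles, 13 of 16 had a positive log2 fold change, with a median of 1.02. There, 1 passed as higher (6.25%, beside 3.98% of all genes in the authors' deposited table). At an unadjusted p below 0.05, 3 were higher and 1 lower, a rule met by 9.2% and 2.96% of all genes. The lower one was VWF, with a log2 fold change of -0.55 ± 0.27 in late atretic against healthy follicles. COL14A1 and COL15A1 had log2 fold changes of 0.09 and -0.53 in that comparison. The summed counts of the endothelial markers were 2082, 3261 and 1885, of which VWF, singled out after its values were seen, held 1772, 2235 and 1174. No endothelial marker was at 0 in healthy follicles, and SOX17, named after its values were seen, was at 0 in late atretic ones. Theca markers had summed counts of 5473, 4226 and 4464 over the 9 found, none at 0 in any stage. Of these sums, ALPL held 2951, 1284 and 1287. Of 8 tested in early atretic follicles 0 were higher and 1 was lower (12.5%, beside 4.35% of all genes). At an unadjusted p below 0.05, 3 were higher and 2 lower there, a rule met by 13.7% and 9.82% of all genes. Of 9 tested in late atretic follicles 0 passed. An unadjusted p below 0.05 gave 1 higher, STAR, a rule met by 9.2% of all genes (the authors' deposited tables). STAR had means of 57.9, 717 and 1286, with no p-value in early atretic follicles. Its late log2 fold change of 4.51 ± 1.51 missed the threshold. Granulosa markers had summed counts of 902014, 274094 and 483068, so defining markers of the labelled cell type were found at every stage. INHA and INHBA, the inhibin and activin subunits, held most of these counts in healthy follicles and were named after their values were seen. TEK stands in both the endothelial and the theca list. The part of endothelial and theca cells in the collagen values was not tested.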

How the data were processed

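Per the labels' protocols, Trizol was used to extract RNA, of which 3 µg went into each library. Each deposited table gives mean normalized read counts per group, read as a signal that the authors scaled within the table, since the values are not whole numbers. Per the file headers, the authors computed the log2 fold change, p-value and adjusted p. The fold change equalled the log2 ratio of both means to within 0.01 at means above 50, and the adjusted p equalled a Benjamini-Hochberg adjustment over all genes tested. Repeated rows (452) were dropped. Not given in the sources used here are the test tool, the counter and the genome build; the submitters' processing notes name Bowtie 0.12.2, mm8 and mm9 with no role. Reads shared between similar genes may have been split or lost in counting.

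Members, classes, lists and the rule for named genes were chosen with earlier results of these data known. A collagen was described singly where a mean reached 100 or an adjusted p fell below 0.05, and from each other list the 3 members with the smallest adjusted p per comparison could be named. Not all of these are named, and names outside the rule are said to be chosen after their values were seen. Names came from identifiers or RefSeq (NDDB_SH_1), and CYP17A1, CYP11A1, HSD3B1, CD163 and LYZ were not analysed here. The code for implied errors and adjustment (Python 3.11.15, scipy 1.17.1) was checked on simulated data. The simulated p-values came from the same normal formula, so whether the authors' test was a normal one was not tested. Alternatives were other thresholds, a filter on means, other scalings and other summaries of a class.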

Additional observations from a re-analysis of the deposited data

How the results depend on the processing

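Leaving out a replicate could not be run from group means. No paired analysis was possible because the columns are group means and carry no replicate number. The depth of each library is unknown, which sets no bound on collagens with means below 10. Rescaling to equal summed group means shifts all log2 fold changes by 0.11 (early against healthy), 0.10 (late against healthy) and -0.03 (late against early), and centring on the median gene, an alternative chosen after seeing the data, by 0.06, 0.03 and -0.06. Neither changed the direction of any described collagen. The deposited p-values were kept, so the counts of higher and lower collagens could change only through direction. They stayed the same, which does not show how the calls depend on scaling. Counts of collagens were within 1.5 times of those reported at an adjusted p below 0.01 and with adjustment over genes with a mean of at least 100, where COL4A1 joined the higher ones in early atretic follicles and COL14A1 and, in late ones, COL5A3 were left out by the filter. With a log2 fold change of at least 1 also asked for, 2 collagens were lower in early atretic follicles in place of 4, since COL4A3 and COL4A4 moved by less. The share of all genes under that rule was not worked out. At an unadjusted p below 0.05, 15 were higher in early atretic (13.7% of all genes were) and 1 was lower in late atretic against healthy follicles (2.96% of all genes). In late against early atretic follicles 6 were higher and 1 lower by that rule (2.36% and 3% of all genes).

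Sums of a class depended on the member with most counts. For type IV, the log2 ratio without COL4A1 was -0.32 (early against healthy), -0.21 (late against healthy) and 0.11 (late against early), in place of 0.09, 0.06 and -0.03, and the median of its log2 fold changes was -0.13 (early against healthy) and 0.22 (late against early). For type VI, the log2 ratios without COL6A3 were 2.04, 2.32 and 0.29 and the medians 2.19, 2.43 and 0.40, in place of 2.96, 4.41 and 1.47. For the other collagens, the log2 ratio without COL12A1 was 0.088 (early against healthy) and 0.32 (late against early), in place of 1.28 and -0.33, and the medians were 0.74, 0.16 and 0.0031. For fibrillar collagens the median in late atretic against healthy follicles was 1.37, in place of 2.44. Whether a class sum moved was judged against the median SD between samples implied by the errors of its members with a mean of at least 100.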

Other observations

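Other proteins with a collagen-like helix, which are not collagens by name, moved in both directions. This list of 28 genes, and the members named from it, were chosen after values had been seen, so its counts support nothing beyond the values. C1QA, C1QB, C1QC, MARCO and MSR1 stand in the macrophage list too. Of 26 tested, 6 were higher and 3 lower in early atretic against healthy follicles, and of 25 tested, 5 were higher and 0 lower in late atretic follicles (the authors' deposited tables). These are 23.1% and 11.5% early and 20.0% higher late, beside 8.59%, 4.35% and 3.98% of all genes. In late atretic follicles 0.397% of all genes were lower. An unadjusted p below 0.05 gave 1 lower member there, a rule met by 2.96% of all genes. CCBE1, a secreted factor needed for lymphatic vessel growth, had means of 566 in healthy, 4543 in early atretic and 3297 in late atretic follicles. It rose by 3.00 ± 0.28 in early and 2.58 ± 0.49 in late atretic follicles (log2; the authors' deposited tables; Benjamini-Hochberg adjusted p = 1.80e-23 and 1.44e-05). CTHRC1, a secreted protein of matrix-making fibroblasts, had means of 6.42, 101 and 150 and rose by 3.98 ± 0.95 and 4.58 ± 0.74 (log2; the authors' deposited tables).

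EMID1, a secreted protein with an EMI domain and a collagen-like stretch, went the other way. It had means of 17763 in healthy, 5166 in early atretic and 11227 in late atretic follicles, and fell by 1.78 ± 0.34 in early atretic follicles (log2; Benjamini-Hochberg adjusted p = 1.02e-05, the authors' deposited table). Its late log2 fold change of -0.62 ± 0.56 missed the threshold of the authors' deposited table. C1QTNF1, a relative of adiponectin, fell by 1.15 ± 0.33 and COLQ, the collagen-like tail of acetylcholinesterase, by 1.67 ± 0.43 in early atretic follicles (log2; the authors' deposited table). C1QTNF6, a relative of C1QTNF1, had means of 83.4, 265 and 207 and rose by 1.67 ± 0.38 and 1.35 ± 0.42 (log2; the authors' deposited tables). SCARA5, a ferritin receptor, had means of 155, 817 and 266, an early peak like that of COL14A1, and rose by 2.40 ± 0.56 in early atretic follicles (log2; the authors' deposited table). Its log2 fold change in late against early atretic follicles was -1.57 ± 0.48 and missed the threshold of the authors' deposited table.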
